A study of Mus musculus with 18 samples.

Results

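Striatal projection neurons are the inhibitory output cells of the striatum, the large subcortical nucleus that lies under the frontal cortex. They are known in 2 classes: direct-pathway cells, which carry the D1 dopamine receptor and the peptide substance P, and indirect-pathway cells, which carry the D2 dopamine receptor, the A2A adenosine receptor and enkephalin. Dopamine raises cyclic AMP through D1 and lowers it through D2, and both classes share the phosphatase regulator and the phosphodiesterase that act downstream. Most of these genes are also expressed in some cells of the cortex and hippocampus. The 9 marker genes described here are the receptors Drd1, Drd2 and Adora2a, the peptide precursors Penk and Tac1, the signalling genes Ppp1r1b, Rgs9 and Pde10a, and the transcription factor gene Meis2. They were taken by name, and all 9 were found among the 18683 genes of the deposited table.

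Their levels were measured by RNA sequencing of whole tissue in 18 libraries, 3 for each of 3 groups of mice in prefrontal cortex and in hippocampus. The groups were 5xFAD mice that received human breast milk vesicles, the membrane particles cells release (5xFAD EV), 5xFAD mice given PBS (5xFAD PBS) and wildtype mice given PBS (wildtype PBS). All mice were male, the labelled strain is C57BL/6J, and every group had 10 injections into a vein, 1 every 3 days, between 5 and 6 months of age. After behavioural tests the mice were perfused with cold PBS. 5xFAD mice carry mutated human transgenes driven by the Thy1 promoter, which is active mainly in neurons. The labels do not state that replicates are separate mice, so the p-values cover only the spread among these libraries, which may be technical. Levels are FPKM, fragments scaled by gene length and library size, so that they can be compared between genes. Differences are on the scale of log2(FPKM + 0.5), with their standard errors (SE). Called means an adjusted p below 0.05 in limma, with adjustment over all genes tested.

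The libraries held 26437852 to 36901744 reads in the listed genes. Of 12 marker genes of hippocampal neurons 11 were called lower in prefrontal cortex than in hippocampus, and of 14 tested neocortical neuron genes 9 were called higher and 1 lower. Over all genes 41.4% were called either way and 17.8% called higher. 1 library, 5xFAD EV prefrontal cortex replicate 3, stood apart in other markers: its 10 choroid plexus genes summed to 869.8 FPKM, against 4.96 to 13.97 FPKM in the other 8 prefrontal libraries, and its 10 thalamic genes to 239.9 FPKM, against 49.9 to 106.8 FPKM. Without it, 0 of the 9 markers were called in the prefrontal comparisons of 5xFAD EV, and 9 of 9 in prefrontal cortex against hippocampus, the same counts as with it.

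RefSeq promoter windows of 300 bases around an annotated start were at hand for 6 of the 9 genes, 8 windows in all, in build GRCm38.p6. The values come from reads aligned to GRCm39, so no other coordinates are given. Shown are Drd1, Drd2 and Tac1, whose levels varied together across the prefrontal libraries, and Meis2, whose level did not (values below). Capitals mark the GC box GGGCGG and the cyclic AMP response element (CRE) half-site TGACG, each searched on both strands, and the full CRE TGACGTCA holds the half-site on both strands.
Drd1, chr13:54055609-54055908, minus strand: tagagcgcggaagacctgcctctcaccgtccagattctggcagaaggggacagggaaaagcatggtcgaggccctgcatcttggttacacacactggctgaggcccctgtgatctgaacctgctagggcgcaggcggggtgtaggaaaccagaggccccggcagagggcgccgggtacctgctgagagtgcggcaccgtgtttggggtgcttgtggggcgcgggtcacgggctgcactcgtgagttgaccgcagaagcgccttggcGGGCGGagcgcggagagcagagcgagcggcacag
Drd2, chr9:49340153-49340452, plus strand: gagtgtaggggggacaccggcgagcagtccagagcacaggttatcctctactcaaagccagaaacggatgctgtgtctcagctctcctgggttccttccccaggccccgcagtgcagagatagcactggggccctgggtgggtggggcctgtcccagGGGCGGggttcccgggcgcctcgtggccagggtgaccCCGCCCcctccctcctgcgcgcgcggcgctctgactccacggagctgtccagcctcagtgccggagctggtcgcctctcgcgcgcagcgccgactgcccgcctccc
Tac1, chr6:7554811-7555110, plus strand: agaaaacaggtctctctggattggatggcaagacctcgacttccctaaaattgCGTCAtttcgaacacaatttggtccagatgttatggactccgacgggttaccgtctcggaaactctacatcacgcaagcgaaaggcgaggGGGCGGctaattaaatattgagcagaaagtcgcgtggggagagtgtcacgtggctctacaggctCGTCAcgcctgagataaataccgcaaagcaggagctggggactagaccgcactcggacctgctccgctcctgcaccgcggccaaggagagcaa
Meis2, chr2:116064570-116064869, minus strand: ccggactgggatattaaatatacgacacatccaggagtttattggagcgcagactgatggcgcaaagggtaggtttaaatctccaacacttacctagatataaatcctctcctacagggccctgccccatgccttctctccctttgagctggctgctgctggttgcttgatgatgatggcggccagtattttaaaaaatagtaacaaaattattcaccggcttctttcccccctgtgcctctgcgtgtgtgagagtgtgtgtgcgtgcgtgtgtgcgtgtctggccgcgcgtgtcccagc
The GC box was found in 7 of the 8 windows and in 35.7% of all 32851 RefSeq windows of the same length, and the Meis2 window was the one without it. The CRE half-site was found in 1 of the 8, that of Tac1, against 20.8% of all windows, and the full CRE in 0 of the 8, against 1.79%. These are matches of letters in 1 window per start and not binding sites.

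The markers were present in both tissues and were higher in prefrontal cortex. By mean FPKM ± SD over 9 libraries, the prefrontal order was Penk (158 ± 79.2), Ppp1r1b (136 ± 63.9), Tac1 (44.8 ± 22.2), Meis2 (39.6 ± 4.17), Adora2a (9.94 ± 7.35), Drd1 (9.72 ± 5.90), Pde10a (8.44 ± 4.64), Drd2 (7.78 ± 5.66) and Rgs9 (7.11 ± 4.15). The ranges of neighbours in this order overlapped, except those of Meis2 and Adora2a. The hippocampal order was Ppp1r1b (41.7 ± 15.8), Penk (27.9 ± 3.85), Meis2 (9.94 ± 1.34), Tac1 (7.72 ± 2.23), Pde10a (2.87 ± 0.603), Rgs9 (1.54 ± 0.210), Drd1 (1.41 ± 0.397), Drd2 (1.22 ± 0.333) and Adora2a (0.503 ± 0.159). There the ranges of neighbours did not overlap between Penk and Meis2, between Tac1 and Pde10a, or between Pde10a and Rgs9. The order of the receptors differed between the tissues for Drd2 and Adora2a: Drd2 stood at 0.338 to 0.942 times the Adora2a level in the 9 prefrontal libraries and at 1.57 to 4.59 times in the 9 hippocampal ones. Drd1 stood at 0.822 to 3.56 times the Adora2a level in prefrontal cortex, above it in 4 of 9 libraries, and at 1.32 to 5.07 times in hippocampus.

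**Figure D1:**
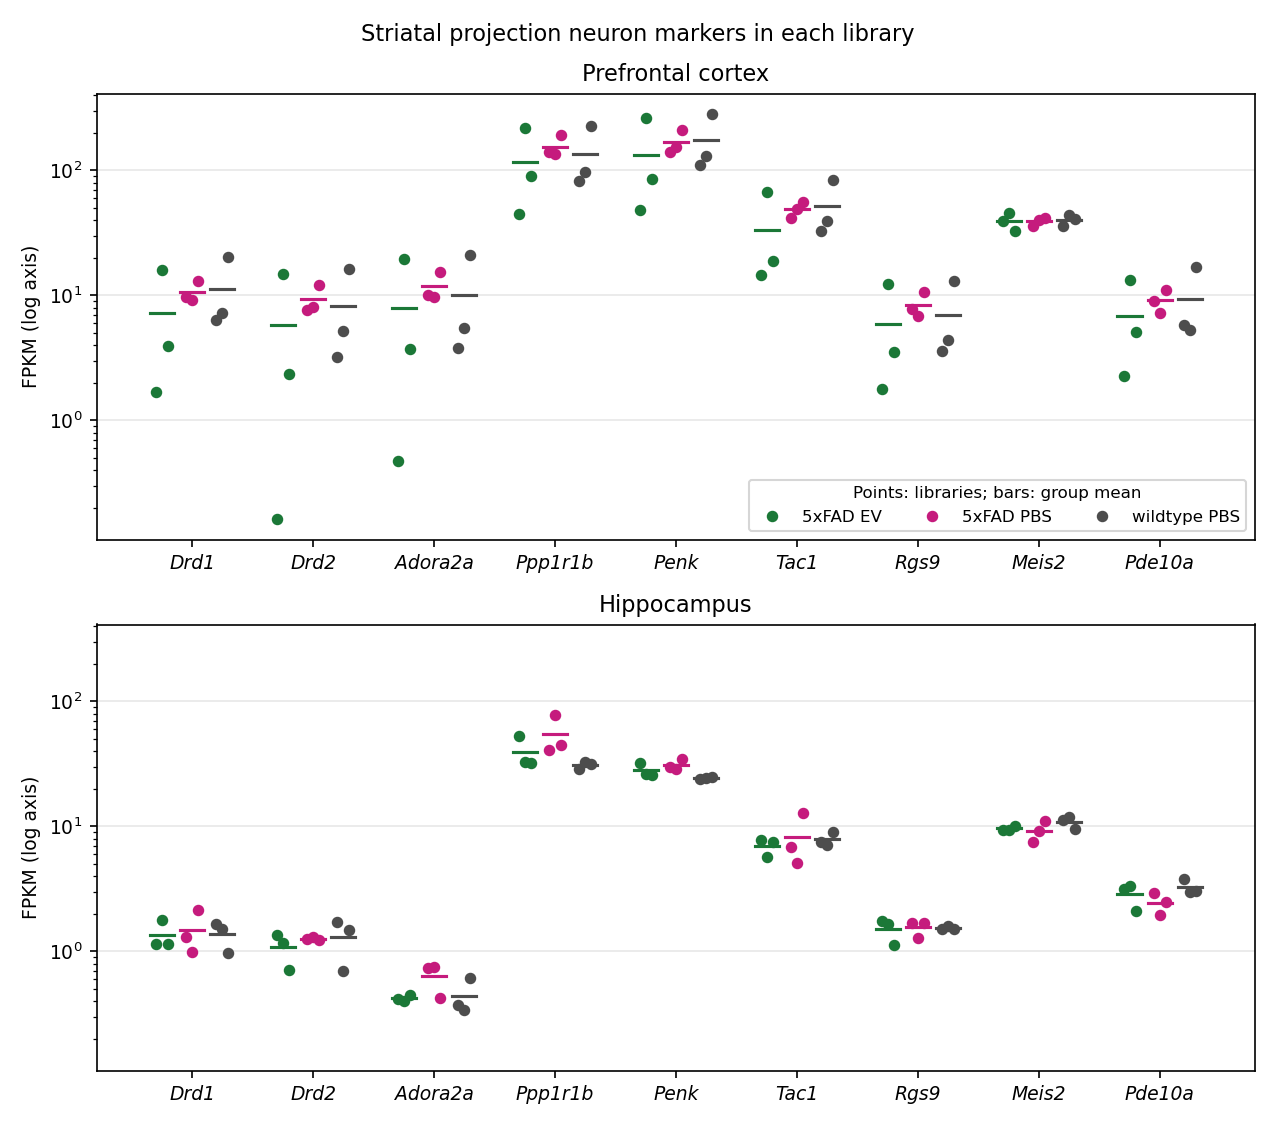
FPKM on a log axis of the 9 markers in each of the 18 libraries, with prefrontal cortex and hippocampus as separate panels and the groups 5xFAD EV, 5xFAD PBS and wildtype PBS in that order; each point is 1 library and each bar a group mean. The prefrontal points of 8 markers spread over a wide range within groups, while those of Meis2 stay between 32.5 and 45.9 FPKM.

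The receptors varied most among the prefrontal libraries. Drd1, which encodes the D1 dopamine receptor of direct-pathway cells, had 1.70, 16.1 and 3.91 FPKM in replicates 1 to 3 of 5xFAD EV, 9.70, 9.25 and 13.0 FPKM in 5xFAD PBS, and 6.30, 7.24 and 20.3 FPKM in wildtype PBS. Drd2, which encodes the D2 receptor of indirect-pathway cells, had 0.162, 14.8 and 2.35 FPKM in 5xFAD EV, 7.71, 8.15 and 12.03 FPKM in 5xFAD PBS, and 3.24, 5.20 and 16.4 FPKM in wildtype PBS. Adora2a, the A2A adenosine receptor gene of indirect-pathway cells, had 0.478, 19.6 and 3.70 FPKM in 5xFAD EV, 10.2, 9.75 and 15.5 FPKM in 5xFAD PBS, and 3.79, 5.52 and 21.0 FPKM in wildtype PBS. For all 3 receptors the lowest library was 5xFAD EV replicate 1, the highest was wildtype PBS replicate 3 and the next was 5xFAD EV replicate 2. The highest library was 11.9 times the lowest for Drd1, 101.4 times for Drd2 and 44.0 times for Adora2a, and every pair of groups overlapped. The lowest values rest on 14 reads for Drd2 and 43 reads for Adora2a.

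The peptide precursors followed the same order of libraries at higher levels. Penk, which encodes the enkephalin precursor, had 48.1, 263 and 86.2 FPKM in 5xFAD EV, 141, 155 and 209 FPKM in 5xFAD PBS, and 109.5, 129.6 and 284 FPKM in wildtype PBS. Tac1, which encodes the substance P precursor, had 14.5, 67.1 and 18.7 FPKM in 5xFAD EV, 41.3, 49.4 and 56.0 FPKM in 5xFAD PBS, and 33.0, 39.0 and 83.7 FPKM in wildtype PBS. Both were lowest in 5xFAD EV replicate 1 and highest in wildtype PBS replicate 3, by 5.90 times for Penk and 5.76 times for Tac1, and the groups overlapped.

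Among the signalling genes, Ppp1r1b encodes DARPP-32, the phosphatase 1 inhibitor that dopamine and cyclic AMP switch on. It had 45.1, 217 and 90.9 FPKM in 5xFAD EV, 139, 134 and 190.4 FPKM in 5xFAD PBS, and 82.0, 97.3 and 227 FPKM in wildtype PBS. Rgs9, whose long form speeds the end of receptor signals in striatal cells, had 1.79, 12.3 and 3.53 FPKM in 5xFAD EV, 7.75, 6.81 and 10.7 FPKM in 5xFAD PBS, and 3.57, 4.37 and 13.1 FPKM in wildtype PBS. Pde10a, the phosphodiesterase that breaks down cyclic nucleotides in both classes of cells, had 2.25, 13.3 and 5.07 FPKM in 5xFAD EV, 9.03, 7.30 and 11.01 FPKM in 5xFAD PBS, and 5.78, 5.24 and 17.0 FPKM in wildtype PBS. The same libraries were at the top and the bottom again, with 5.04 to 7.54 times between them.

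Meis2, a homeobox transcription factor gene of developing and adult striatum that other forebrain neurons also express, differed. It had 39.4, 45.9 and 32.5 FPKM in 5xFAD EV, 35.8, 40.2 and 41.6 FPKM in 5xFAD PBS, and 36.2, 43.8 and 40.9 FPKM in wildtype PBS. Its highest library was 5xFAD EV replicate 2 and its lowest 5xFAD EV replicate 3, only 1.41 times apart. Over all 9 markers, wildtype PBS replicate 3 ranked highest for 8, 5xFAD EV replicate 2 came next for 8, 5xFAD PBS replicate 3 was the third highest for 9, and 5xFAD EV replicate 1 last for 8. The high and the low libraries thus lay in the same groups: the mean of the 9 markers stood at 0.304, 1.89 and 0.607 times the prefrontal mean in 5xFAD EV, at 1.16, 1.16 and 1.58 times in 5xFAD PBS, and at 0.729, 0.878 and 2.09 times in wildtype PBS.

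**Figure D2:**
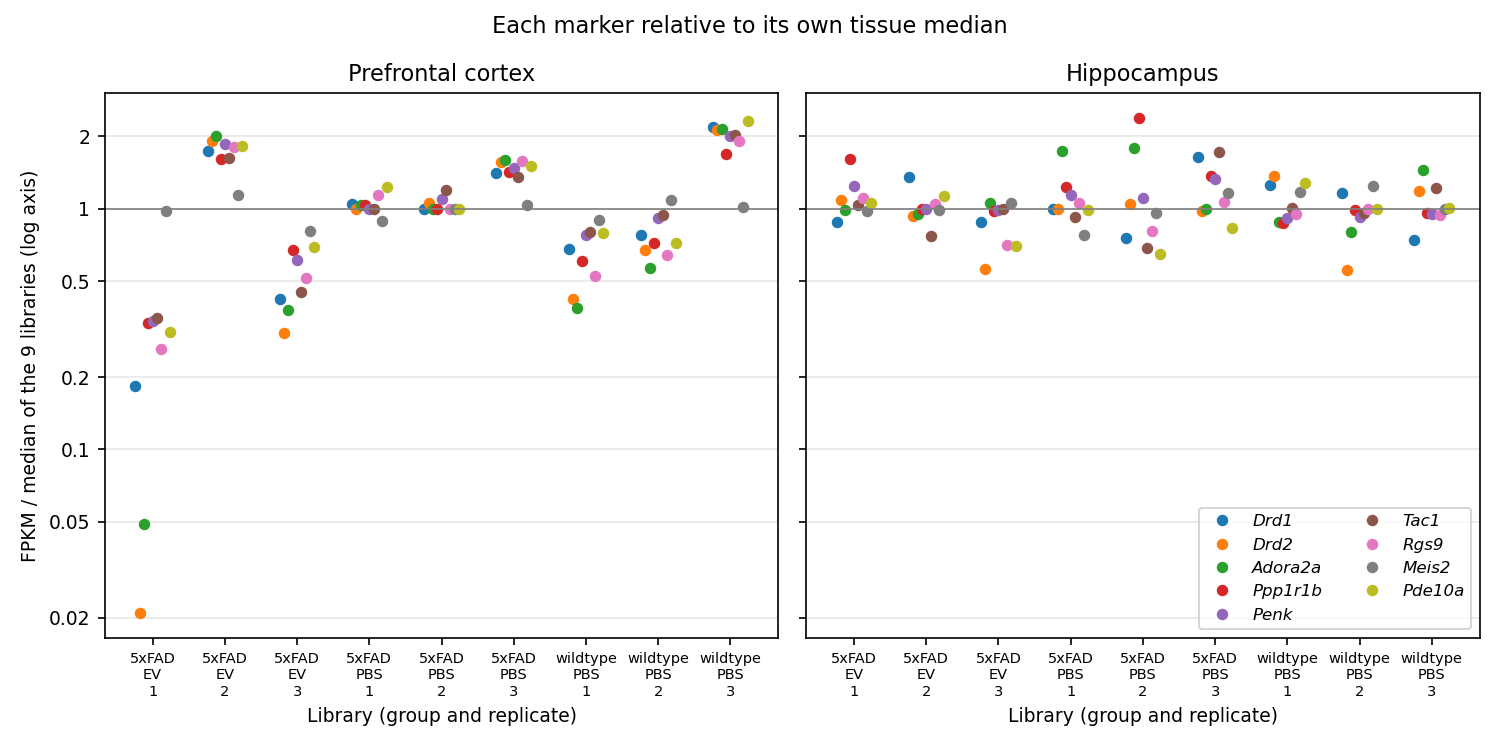
FPKM of each marker divided by its median over the 9 libraries of the tissue, on a log axis, for every library; each point is 1 marker in 1 library, and replicates have no order. In prefrontal cortex 8 markers shift together from library to library and Meis2 stays near its median, with 5xFAD EV replicate 1 lowest and wildtype PBS replicate 3 highest.

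The spread of 8 markers between replicates was among the widest in prefrontal cortex. It was measured as the SD of log2(FPKM + 0.5) around the 3 group means. Drd2 had 1.47, rank 6 from the top among the 13055 genes tested, Adora2a 1.46 (rank 7), Drd1 1.01 (rank 29), Rgs9 0.929 (rank 41), Pde10a 0.863 (rank 52), Penk 0.848 (rank 57), Ppp1r1b 0.810 (rank 67) and Tac1 0.797 (rank 71). Meis2 had 0.175, at rank 4580. The median over the 9 markers was 0.863, beside 0.145 over all genes tested, and ran from 0.661 to 0.946 as each library was left out in turn. In hippocampus the median over the markers was 0.253, beside 0.159 over all 13305 genes tested. In whole tissue, fewer cells of a type and less RNA per cell cannot be told apart.

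**Figure D3:**
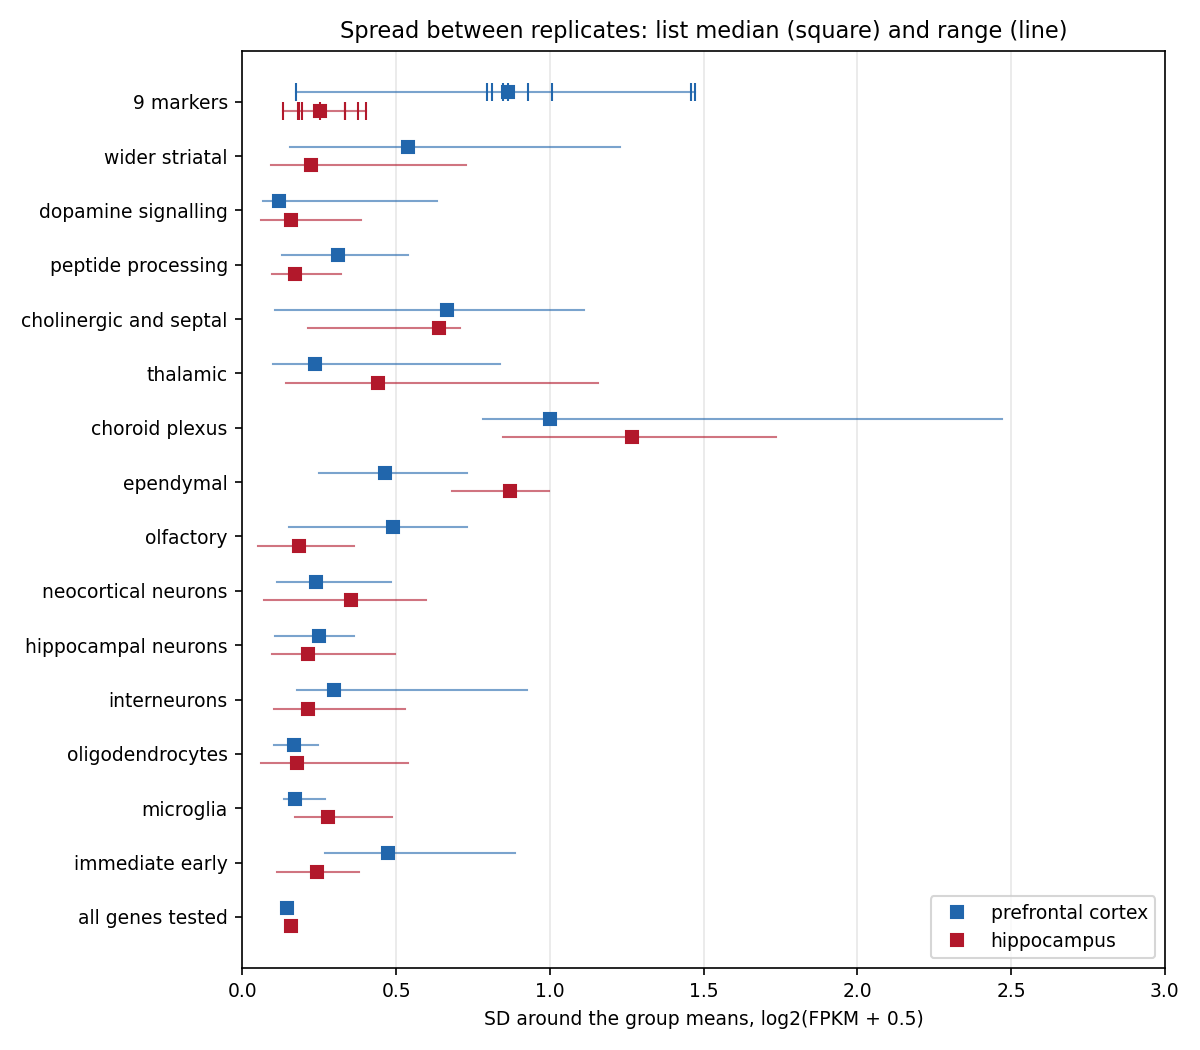
SD of log2(FPKM + 0.5) around the 3 group means in prefrontal cortex and hippocampus, with the median of each gene list as a square, the range of the list as a line, and each of the 9 markers as a tick; for all genes tested only the median is drawn. The prefrontal median of the markers, 0.863, lies above that of all genes tested, 0.145, and the choroid plexus list, with 4 genes tested, has a higher prefrontal median of 1.002.

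Across the 9 prefrontal libraries the markers of both classes of cells varied together. Pearson's r of log2(FPKM + 0.5) was 0.931 to 0.995 in the 28 pairs of markers without Meis2, with a median of 0.977, and 0.352 to 0.581 in the 8 pairs with Meis2. In hippocampus the 36 pairs gave -0.776 to 0.665, with a median of 0.135. The points of each pair share their library, and r is a description over 9 libraries. The ratio of Drd1 to Drd2, a direct-pathway to an indirect-pathway gene, was 1.08 to 1.94 in 8 prefrontal libraries and 10.5 in 5xFAD EV replicate 1, where Drd2 was nearly absent. The ratio of Penk to Tac1 was 3.14 to 4.60 in all 9.

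The markers differed in how much of their prefrontal level remained where the others were lowest. On a straight line of FPKM against Adora2a over the 9 libraries, the level of Drd2 at an Adora2a level of 0 was 0.154 FPKM, or 1.98% of its mean. The same share was 19.4% for Drd1, 21.2% for Rgs9, 27.5% for Pde10a, 33.2% for Penk, 35.6% for Tac1, 36.7% for Ppp1r1b and 92.3% for Meis2. The r squared of these lines was 0.923 to 0.995 for the markers other than Meis2 and 0.296 for Meis2.

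Other genes of striatal cells did the same. A wider list of 38 such genes, with no member among them, was listed whole, and 35 passed the filter on low values in prefrontal cortex. Of these, 24 had an r of at least 0.9 with the mean of the 9 markers over the 9 prefrontal libraries, and in hippocampus 0 of 30 did. Among all 11611 prefrontal genes ranked, 50 had such an r, and 1 of 11772 in hippocampus. The ranked genes exclude the 9 markers and needed a mean of at least 1 FPKM, which the 35 did not. Isl1, with a prefrontal mean of 0.790 FPKM and an r of 0.940, is thus among the 24 and not the 50. Among the 10 prefrontal genes most like the markers were Six3 (r of 0.997), Rarb (0.993), Lrrc10b (0.990), Serpina9 (0.983), Foxp2 (0.982), Gpr6 (0.981), Slc35d3 (0.975), Cd4 (0.973) and Rem2 (0.972), and 7 of the 10 are on the wider list. Six3, a homeobox gene, ran from 0.035 to 3.28 FPKM. The 10 hippocampal genes of highest r with the marker mean were Amotl1 (r of 0.928), Xrcc2, AW551984, Pik3r4, Ogfr, Klhl13, Tmem163, Mtss1, Zcchc12 and Rad9a (r of 0.847), with 0 of the 10 on the wider list. In hippocampus the markers themselves followed this mean loosely, with an r of 0.011 (Adora2a) to 0.709 (Penk). A high r there, or the lack of one among the 30 wider genes, therefore says little about likeness to the single markers.

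Among the 10 genes of the wider list with the highest prefrontal mean were Arpp19 (241 FPKM), Ppp1r1a (74.5), Pde1b (65.7), Gng7 (60.2), Gnal (53.4), Ptpn5 (45.1), Scn4b (38.2), Rasd2 (38.1) and Adcy5 (32.3). Of these, Gng7, Gnal and Adcy5 encode the G protein subunits and the adenylyl cyclase through which D1 and A2A receptors act in striatal cells, and their r with the marker mean was 0.942, 0.917 and 0.926. Arpp19 and Ppp1r1a, which encode phosphatase regulators that are also widely expressed outside the striatum, had an r of 0.438 and 0.277. The wider list had a median SD around the group means of 0.538 in prefrontal cortex, beside 0.239 for neocortical neuron genes, 0.299 for interneuron genes and 0.169 for oligodendrocyte genes. A wide spread was also seen in other lists, with medians of 1.002 for choroid plexus genes (4 tested), 0.664 for cholinergic and septal genes, 0.491 for olfactory genes, 0.474 for immediate early genes and 0.464 for ependymal genes.

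Markers of other cells and regions were set beside the prefrontal pattern. The summed level of 14 listed neocortical neuron genes was 562 to 803 FPKM in 5xFAD EV, 719 to 752 FPKM in 5xFAD PBS and 688 to 807 FPKM in wildtype PBS, and log2 of the sum had an r of -0.24 with the marker mean. The sum of 10 oligodendrocyte genes was 988 to 1272 FPKM in 5xFAD EV, 1122 to 1257 FPKM in 5xFAD PBS and 991 to 1357 FPKM in wildtype PBS, with an r of 0.54. Of 8 genes listed for cholinergic neurons, which the striatum and the basal forebrain hold, and for the septum, some varied with the markers and others did not. Chat, the acetylcholine synthesis enzyme, had 0.0349, 1.65 and 0.275 FPKM in 5xFAD EV, 0.601, 0.882 and 1.20 FPKM in 5xFAD PBS, and 0.324, 0.295 and 2.48 FPKM in wildtype PBS, with an r of 0.943. The choline transporter gene Slc5a7 had an r of 0.944, and Lhx8, a homeobox gene of cholinergic neurons, had 0.928 and was at 0 in 5xFAD EV replicate 1. The list of 8 cholinergic and septal genes summed to 9.13 to 62.5 FPKM in 5xFAD EV, 11.8 to 15.3 FPKM in 5xFAD PBS and 9.41 to 17.9 FPKM in wildtype PBS. The highest sum was that of replicate 3, the library with choroid plexus genes, where Zic1 alone had 54.3 FPKM. The r of the summed list was 0.11. Among its other members, r was 0.822 for Slc18a3, 0.242 for Prg4, 0.182 for Trpc4 and -0.151 for Zic1, and Chat, Slc5a7 and Lhx8 were picked out after their values were seen. How far the amount of striatal or basal forebrain tissue in each sample sets these levels was not tested.

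The first comparison asks what the 5xFAD genotype changed in prefrontal cortex without vesicles. Of the 9 markers 0 were called, against 1.96% of all genes tested (256 of 13055). The differences of 5xFAD PBS from wildtype PBS were 0.10 (SE 0.63) for Drd1, 0.43 (SE 0.93) for Drd2, 0.55 (SE 0.92) for Adora2a, 0.06 (SE 0.53) for Penk, 0.03 (SE 0.50) for Tac1, 0.32 (SE 0.51) for Ppp1r1b, 0.44 (SE 0.59) for Rgs9, 0.15 (SE 0.55) for Pde10a and -0.04 (SE 0.12) for Meis2, each with an adjusted p of 0.998 in limma. The 95% interval for Drd2 ran from -1.62 to 2.49 and that for Meis2 from -0.31 to 0.24, so the width of what could be seen differed between markers. The groups overlapped for 9 of 9 markers, while 14.7% of all genes had no overlap.

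The second comparison asks what the vesicles changed in 5xFAD prefrontal cortex. Of the 9 markers 0 were called, and 0% of all genes were, with 616 genes at an unadjusted p under 0.05 in limma and 0 called by voom, limma's fit for counts, on the reads recovered from the FPKM. Relative to 5xFAD PBS the means in 5xFAD EV differed by -1.02 (SE 0.63) for Drd1, -1.65 (SE 0.93) for Drd2, -1.47 (SE 0.92) for Adora2a, -0.68 (SE 0.53) for Penk, -0.87 (SE 0.50) for Tac1, -0.66 (SE 0.51) for Ppp1r1b, -0.84 (SE 0.59) for Rgs9 and -0.67 (SE 0.55) for Pde10a, with an adjusted p of 0.822 for each. Meis2 differed by -0.01 (SE 0.12, adjusted p of 0.990). Replicate 2 of 5xFAD EV lay above every 5xFAD PBS library for all 9 markers. Replicate 3 lay below every one for all 9, and replicate 1 for the 8 other than Meis2. The Drd2 difference was -0.54 without 5xFAD EV replicate 1, -2.81 without replicate 2 and -1.60 without replicate 3, the library with choroid plexus genes. No overlap was seen for 0 of 9 markers and for 10.6% of all genes.

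Set against wildtype PBS, 5xFAD EV prefrontal cortex also had 0 of 9 markers called, against 1.52% of all genes (198 of 13055). The differences ran from -1.21 (SE 0.93) for Drd2 to -0.05 (SE 0.12) for Meis2, with adjusted p of 0.441 to 0.874. This comparison shares its libraries with the other prefrontal comparisons. Without 5xFAD EV replicate 1 and wildtype PBS replicate 3, the lowest and the highest library, 0 of 9 were called too. No overlap was seen for 0 of 9 markers and for 19.3% of all genes.

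**Figure D4:**
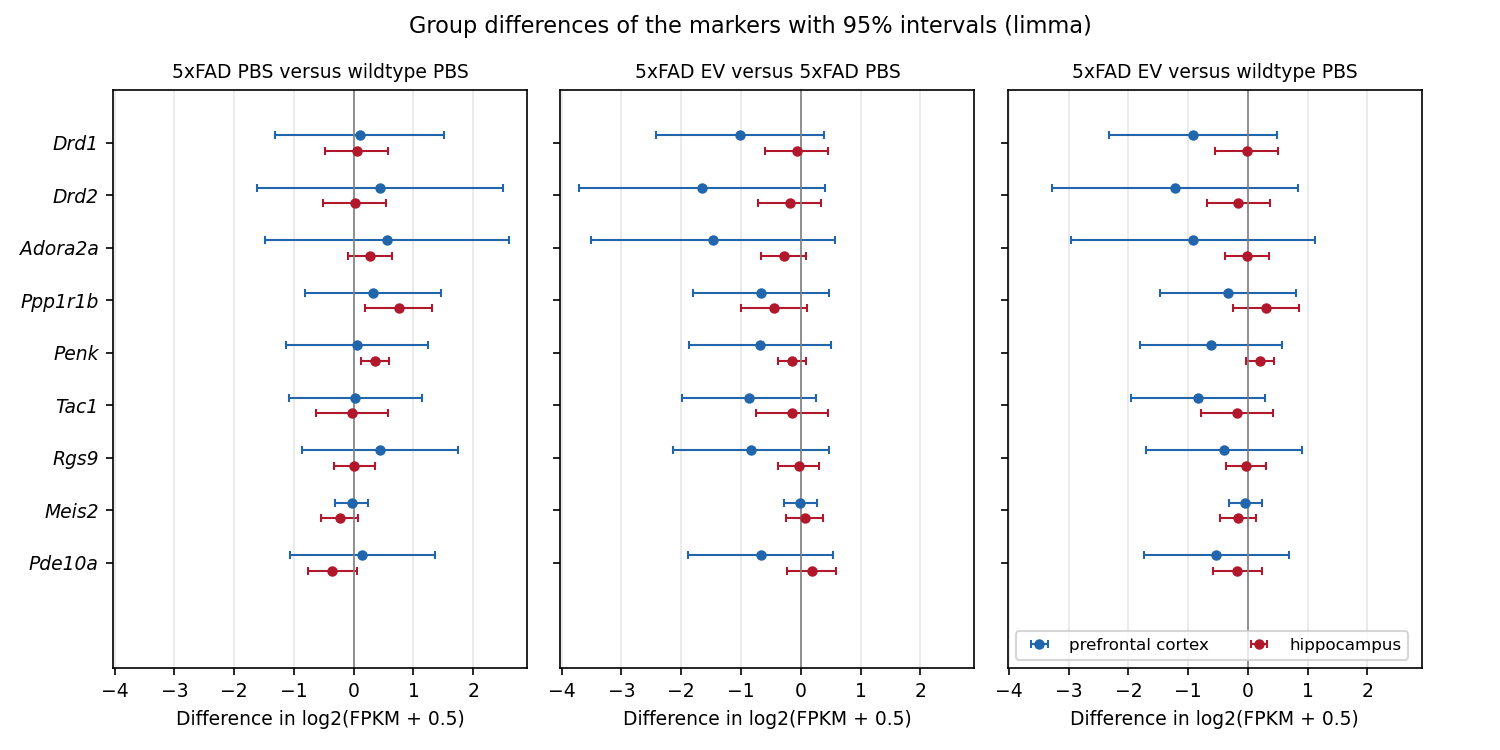
Differences of log2(FPKM + 0.5) for the 9 markers with 95% intervals, in prefrontal cortex and in hippocampus, for 5xFAD PBS against wildtype PBS, 5xFAD EV against 5xFAD PBS and 5xFAD EV against wildtype PBS. The prefrontal intervals of 8 markers are wide and cross 0 in all comparisons, and in hippocampus those of Ppp1r1b and Penk for 5xFAD PBS against wildtype PBS lie above 0 but were not called.

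In hippocampus all 9 markers had lower means, and 8 of the 9 had a narrower spread between replicates, Meis2 (SD of 0.185 in hippocampus and 0.175 in prefrontal cortex) being the other. Of the 9 markers 0 were called in 5xFAD PBS against wildtype PBS, against 4.59% of all genes (611 of 13305). The groups did not overlap for 3 of 9 markers, Ppp1r1b, Penk and Pde10a, a share to be read against 25.5% of all genes. Ppp1r1b had 40.8, 78.4 and 45.2 FPKM in 5xFAD PBS, against 28.7, 32.7 and 31.7 FPKM in wildtype PBS. The difference was 0.75 (SE 0.25, unadjusted p of 0.0134, adjusted p of 0.137 in limma), and it was 0.46 without 5xFAD PBS replicate 2. Penk had 29.9, 29.0 and 34.8 FPKM in 5xFAD PBS, against 23.9, 24.2 and 24.8 FPKM in wildtype PBS, a difference of 0.35 (SE 0.10, unadjusted p of 0.00761, adjusted p of 0.1003). Pde10a had 2.95, 1.95 and 2.48 FPKM in 5xFAD PBS, against 3.83, 2.99 and 3.02 FPKM in wildtype PBS, a difference of -0.36 (SE 0.18, adjusted p of 0.335). The other 6 markers differed by -0.23 (Meis2) to 0.27 (Adora2a), and Adora2a passed the filter on low values mainly through 5xFAD PBS libraries.

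Hippocampal Ppp1r1b moved with the genes of the choroid plexus, the epithelium that secretes cerebrospinal fluid and lies beside the hippocampus. The 10 choroid plexus genes summed to 5748, 2289 and 190 FPKM in 5xFAD EV, 2639, 8964 and 2800 FPKM in 5xFAD PBS, and 37.3, 86.2 and 171 FPKM in wildtype PBS. Ppp1r1b stood at 52.9, 32.9 and 32.2 FPKM in the same 5xFAD EV libraries, and its level was highest in 5xFAD PBS replicate 2, where the choroid plexus sum was also highest. Over the 9 hippocampal libraries the r between them was 0.968 in FPKM and 0.820 on the log2 scale. Penk had an r of 0.580 and 0.806, and the other 7 markers had -0.433 to 0.503 in FPKM. Of the 10 choroid plexus genes 8 were called higher in 5xFAD PBS than in wildtype PBS hippocampus, against 4.59% of all genes called either way. The part of choroid plexus tissue in the Ppp1r1b and Penk levels was not tested.

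**Figure D5:**
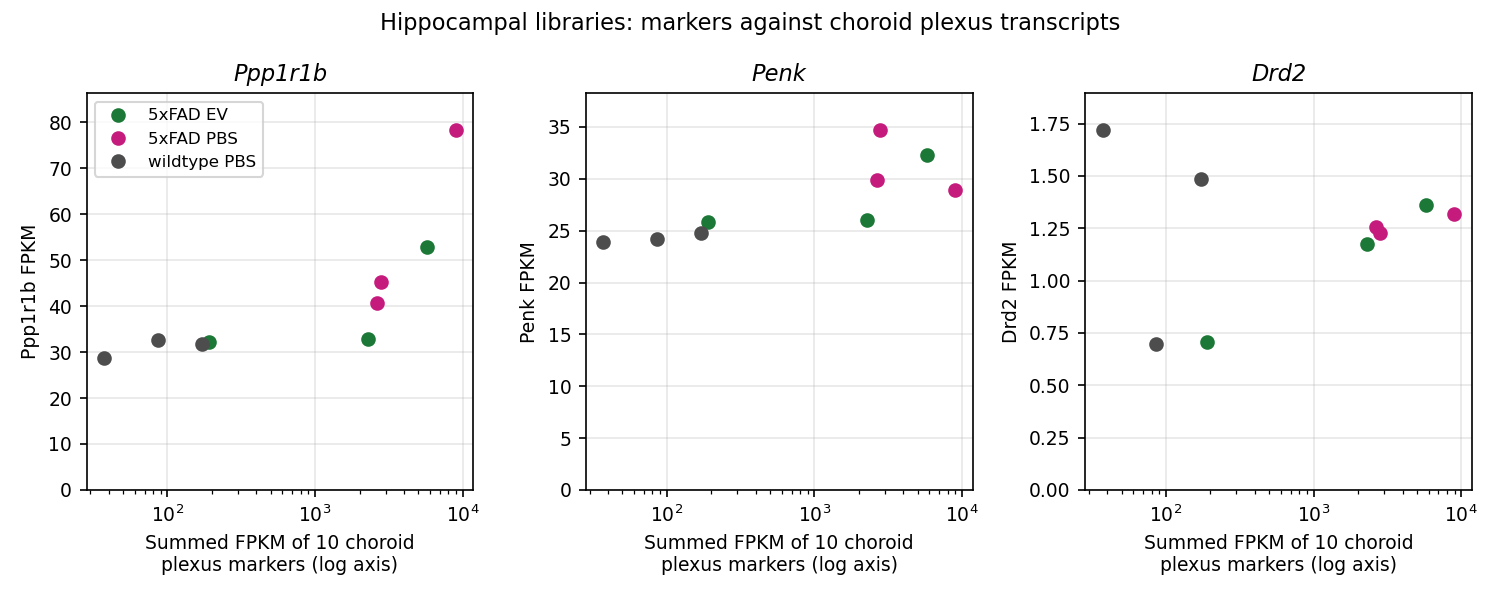
FPKM of Ppp1r1b, Penk and Drd2 in hippocampus against the summed FPKM of 10 choroid plexus genes on a log axis, 1 point for each of the 9 hippocampal libraries, coloured by group. Ppp1r1b is highest, at 78.4 FPKM, in the library with the highest sum of 8964 FPKM, and the wildtype PBS libraries have sums of 37.3 to 171 FPKM.

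The vesicle groups in hippocampus gave no called marker. In 5xFAD EV against 5xFAD PBS 0 of 9 were called and 0% of all genes, with 519 genes at an unadjusted p under 0.05. Ppp1r1b differed by -0.45 (SE 0.25), Adora2a by -0.29 (SE 0.17) and Penk by -0.15 (SE 0.10), each with an adjusted p of 0.867 in limma, and the others by -0.18 (Drd2) to 0.18 (Pde10a). Adora2a lay at 0.405 to 0.450 FPKM in 5xFAD EV, under the filter of 0.5 FPKM, which it passed mainly through 5xFAD PBS libraries. In 5xFAD EV against wildtype PBS 0 of 9 were called, against 2.1% of all genes. Penk, at 32.3, 26.1 and 25.8 FPKM in 5xFAD EV and 23.9, 24.2 and 24.8 FPKM in wildtype PBS, was the 1 marker of 9 without overlap, against 18.6% of all genes (difference 0.20, SE 0.10, adjusted p of 0.516). Between 5xFAD EV and 5xFAD PBS, 0 of 9 markers and 7.51% of all genes had no overlap.

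Whether the genotype or the vesicles acted differently in the 2 tissues was tested on all 18 libraries. Neither difference was called for any of the 9 markers, and 0% of 13574 genes were called in either, with 787 and 680 genes at an unadjusted p under 0.05. For Drd2 the vesicle effect in prefrontal cortex minus that in hippocampus was -1.47, and for Meis2 it was -0.08.

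The tissues themselves differed. All 9 markers were called higher in prefrontal cortex than in hippocampus over the 3 groups, against 17.8% of all genes called higher and 41.4% called either way. The differences were 2.18 (SE 0.31) for Drd1, 1.82 (SE 0.44) for Drd2, 2.93 (SE 0.43) for Adora2a, 2.32 (SE 0.25) for Penk, 2.32 (SE 0.26) for Tac1, 1.60 (SE 0.26) for Ppp1r1b, 1.69 (SE 0.28) for Rgs9, 1.24 (SE 0.26) for Pde10a and 1.95 (SE 0.08) for Meis2, and the highest adjusted p in limma was 0.00335, that of Drd2. In mean FPKM, Adora2a was 19.8 times as high, Drd1 6.89 times, Drd2 6.40 times, Tac1 5.80 times, Penk 5.68 times, Rgs9 4.63 times, Meis2 3.98 times, Ppp1r1b 3.26 times and Pde10a 2.94 times. For Penk, Tac1, Rgs9 and Meis2 all 9 prefrontal libraries lay above all 9 hippocampal ones, 4 of 9 markers against 10.6% of all genes. For the other 5 markers 8 of 9 did, and 5xFAD EV replicate 1 lay within or under the hippocampal range.

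By group, 9 of 9 markers were called higher in prefrontal cortex in 5xFAD PBS (9.78% of all genes called higher), 7 of 9 in wildtype PBS (7.16%) and 4 of 9 in 5xFAD EV (8.32%). In wildtype PBS, Drd2 (2.03, adjusted p of 0.0842) and Pde10a (1.19, adjusted p of 0.0914) were not called. In 5xFAD EV the called ones were Adora2a (2.24, adjusted p of 0.0490), Penk (1.87), Tac1 (1.86) and Meis2 (1.96), and without replicate 1 of prefrontal cortex all 9 were called. That library was the lowest for 8 of the 9 markers, so leaving it out raises their differences. As each 5xFAD EV library was left out in turn, 3 to 9 of the 9 were called. Of the wider list 29 of 35 genes were called higher in prefrontal cortex and 2 lower, with a median difference of 1.03, beside -0.03 over all genes. The lower ones were Lrrc10b (-1.53, SE 0.36, adjusted p of 0.0028) and Bcl11b (-0.34, SE 0.11, adjusted p of 0.0171), a transcription factor gene that hippocampal neurons also express.

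The other genes of the pathway gave few calls between groups, as did all genes. In prefrontal cortex 0 of 35 wider striatal genes, 0 of 16 tested partners of dopamine signalling and 0 of 10 genes of peptide processing and peptide receptors were called in each of the 3 comparisons. Over all genes the shares called were 1.96% for 5xFAD PBS against wildtype PBS, 0% for 5xFAD EV against 5xFAD PBS and 1.52% for 5xFAD EV against wildtype PBS. Counts of 0 in lists of this size therefore do not set them apart from all genes. The wider list had a median difference of 0.13 for 5xFAD PBS against wildtype PBS, -0.44 for 5xFAD EV against 5xFAD PBS and -0.32 for 5xFAD EV against wildtype PBS, beside 0.02, 0.02 and 0.05 over all genes. In hippocampus Chrm4, the M4 muscarinic receptor gene of direct-pathway cells, fell in 5xFAD PBS against wildtype PBS by 0.53 (SE 0.11, adjusted p of 0.0283), the 1 gene of 30 tested that was called there, against 4.59% of all genes, so the list gave no larger share of calls than all genes did.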

How the data were processed

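Groups and replicate numbers came from the sample titles. Per the submitters' processing notes, fastp, HISAT2 and HTSeq were used with build GRCm39. Versions, gene annotation, strand and the filter behind the gene list: not given in the sources used here. The authors deposited FPKM for 18683 genes in 18 libraries. Within a gene the FPKM values were whole multiples of 1 read for 100% of genes, within a relative tolerance of 1e-06, which gave the reads per value.

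FPKM is no count, so log2(FPKM + 0.5) was fitted in limma 3.58.1 (R 4.3.3) with a mean per group, eBayes with an intensity trend, two-sided tests and Benjamini-Hochberg adjustment over all genes tested. A gene was tested where 3 or more of the libraries fitted reached 0.5 FPKM, and all 9 markers passed in every main fit. With 1 library left out, hippocampal Adora2a was tested in only 3 to 5 of 6 fits for each comparison of groups. At the alternative filter of 2 FPKM, Drd1, Drd2, Adora2a and Rgs9 were not tested in hippocampus. Each tissue's 9 libraries were fitted together, and tissues on all 18. The fits were checked on counts simulated independently for each gene, with the same dispersion for every gene. That check does not cover genes that vary as widely and as jointly as most of these markers.

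The members, the gene lists and the tests were chosen with earlier results of these data known. All 9 members are named in every comparison. Of the wider striatal list, called genes and the 10 highest in prefrontal cortex are named. The genes most like the members are the 10 of highest Pearson r with their mean, at a mean of at least 1 FPKM, without Gm and Rik symbols. Some genes of these rules and lists are not reported here.

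Alternatives were the pseudocount, the filter, library centring, voom on recovered reads, the replicate number as a block and each library left out. Within a tissue, every equal number deviated together only between 5xFAD PBS and wildtype PBS in prefrontal cortex (correlations of 0.213, 0.509 and 0.169). Between the tissues, the correlations of equal numbers were 0.381, 0.495 and 0.012 in 5xFAD PBS. They were 0.305, 0.166 and -0.275 in wildtype PBS and -0.243, 0.086 and -0.209 in 5xFAD EV. The main fit on all 18 libraries used no such pairing. The labels give no pairing, so it was read from the values. The block changed no marker's call for 5xFAD PBS against wildtype PBS in prefrontal cortex.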

Additional observations from a re-analysis of the deposited data

How the results depend on the processing

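In the 6 comparisons between groups and in both differences between tissues, 0 of the markers tested were called under any alternative run. All 9 were called in prefrontal cortex against hippocampus under each. Not all 9 were tested in every hippocampal run: the filter of 2 FPKM left out Drd1, Drd2, Adora2a and Rgs9. Adora2a also went untested in some fits with 1 library left out. The median spread of the markers ran from 0.661 to 0.946 in prefrontal cortex and from 0.212 to 0.272 in hippocampus as each library was left out.

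With the replicate number as a block, 218 genes were called for 5xFAD PBS against wildtype PBS in prefrontal cortex, against 256 without it. With the block Ppp1r1b had an adjusted p of 0.187 and Penk 0.146 in hippocampus for that comparison, and in 5xFAD EV the tissue difference of Drd1 was called (adjusted p of 0.0408). A filter of 2 FPKM gave 161 genes called for 5xFAD PBS against wildtype PBS in prefrontal cortex. With no filter the vesicle effect in prefrontal cortex minus that in hippocampus had 1 gene called, against 0. As each library was left out, genes called in prefrontal cortex numbered 142 to 218 for 5xFAD PBS against wildtype PBS and 89 to 229 for 5xFAD EV against wildtype PBS. In hippocampus they numbered 320 to 446 for 5xFAD PBS against wildtype PBS, below the 611 with all libraries, and 159 to 278 for 5xFAD EV against wildtype PBS, below 280. Within single groups, tissue calls were lost while most differences stayed near their size. Adora2a in 5xFAD EV, at 2.24, was not called at a pseudocount of 1 (1.88), with no filter (2.24), under voom (3.02) and in 5 of 6 fits with 1 library left out (1.13 to 2.26). Under voom Adora2a in wildtype PBS was not called (4.15, adjusted p of 0.0801). With 1 library left out, calls were lost in 5xFAD PBS for Drd2 in 6 of 6 fits (2.25 to 2.56), Ppp1r1b in 3 (1.35 to 1.43) and Pde10a in 1 (1.56), and in wildtype PBS for Rgs9 in 4 (1.13 to 1.69).

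Left out together, a choice made after seeing the data, 5xFAD EV replicate 1 and wildtype PBS replicate 3 of prefrontal cortex gave 74 genes called for 5xFAD EV against wildtype PBS, against 198, and 152 for 5xFAD PBS against wildtype PBS. With the marker mean as a covariate, also added later, the first was 120. Without this pair of libraries the prefrontal differences of 5xFAD EV from wildtype PBS were 0.24 for Drd1, 0.52 for Drd2, 0.86 for Adora2a, 0.34 for Penk, 0.65 for Ppp1r1b, 0.69 for Rgs9 and 0.55 for Pde10a. The genotype effect in prefrontal cortex minus that in hippocampus was then 0.020 for Ppp1r1b and 0.12 for Penk, and the vesicle effect 0.33 for Ppp1r1b and 0.016 for Penk. The pair was chosen for its marker levels, which sets the direction of these shifts. Centring the libraries gave -0.0020 for Rgs9 in hippocampus, 5xFAD PBS against wildtype PBS, and voom gave 0.0081 for Drd1 in hippocampus, 5xFAD EV against wildtype PBS. These signs changed among differences that were not called, and the cause was not tested.

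As each library was left out in turn, uncalled differences also changed sign. The ranges for 5xFAD EV against 5xFAD PBS in prefrontal cortex were Meis2 -0.13 to 0.12. The ranges for 5xFAD EV against wildtype PBS in prefrontal cortex were Adora2a -2.02 to 0.16, Ppp1r1b -0.92 to 0.20, Rgs9 -1.09 to 0.15, Pde10a -1.13 to 0.032 and Meis2 -0.16 to 0.082. The ranges for 5xFAD PBS against wildtype PBS in prefrontal cortex were Drd1 -0.20 to 0.60, Drd2 -0.028 to 1.06, Penk -0.21 to 0.48, Tac1 -0.23 to 0.43, Pde10a -0.14 to 0.66 and Meis2 -0.11 to 0.026. The ranges for 5xFAD EV against 5xFAD PBS in hippocampus were Drd1 -0.25 to 0.16, Tac1 -0.42 to 0.20, Rgs9 -0.13 to 0.11 and Meis2 -0.071 to 0.20. The ranges for 5xFAD EV against wildtype PBS in hippocampus were Drd1 -0.18 to 0.088, Drd2 -0.43 to 0.02, Rgs9 -0.11 to 0.12 and Pde10a -0.28 to 0.0031. The ranges for 5xFAD PBS against wildtype PBS in hippocampus were Drd1 -0.18 to 0.24, Drd2 -0.25 to 0.20, Tac1 -0.38 to 0.25 and Rgs9 -0.039 to 0.11. The ranges for the genotype effect in prefrontal cortex minus that in hippocampus were Drd1 -0.25 to 0.55, Drd2 -0.049 to 1.04, Adora2a -0.19 to 0.98, Penk -0.56 to 0.12, Tac1 -0.22 to 0.46 and Ppp1r1b -0.71 to 0.02. The ranges for the vesicle effect in prefrontal cortex minus that in hippocampus were Penk -1.20 to 0.016, Ppp1r1b -0.80 to 0.33 and Meis2 -0.21 to 0.062. The ranges for prefrontal cortex against hippocampus in 5xFAD EV were Drd2 -0.18 to 2.09.

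Depth limits the lowest values: Drd2 and Adora2a in 5xFAD EV prefrontal cortex replicate 1 rest on 14 and 43 reads, and hippocampal Adora2a on 35 to 80. With 3 libraries a group and a spread near 1 on the log2 scale, the prefrontal intervals of 8 markers span more than 2-fold either way, and smaller differences could not be seen.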
